A study of Mus musculus with 45 samples.

Results

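The 9 genes described here encode surface proteins used to recognise or isolate muscle satellite cells: Calcr, Cxcr4, Cdh15, Vcam1, Chodl, Sdc3, Sdc4, Megf10 and Cd34. They were taken by name from the 35675 genes of the series, and the levels of Pax7 were set beside them to see which markers followed it. RNA was sequenced in bulk from 45 mouse libraries in 15 groups of 3, and all samples carried the Tg:Pax7-nGFP transgene, a nuclear green fluorescent reporter of Pax7, on a C57BL6;DBA2 background. Mouse embryonic fibroblasts (MEFs) were profiled untreated, or after 2, 4, 6, 8 and 10 days of doxycycline (Dox), which switches on MyoD, the transcription factor that turns fibroblasts into muscle. Cultures that received Dox only are called MyoD alone here, and their labels give them as myotubes. Cultures that also received the compounds labelled F/R/C on the same days are given as muscle fibers with progenitor cells. Induced myogenic progenitor cells (iMPCs) had gone through 13 days of Dox with F/R/C and were then kept in medium with F/R/C. Primary myoblasts came from skeletal muscle and were untreated. Bulk iMPCs and bulk myoblasts were mixed cultures, and the Pax7-positive iMPCs and Pax7-positive myoblasts were sorted on the reporter by flow cytometry. The labels do not say whether replicates were separate cultures or animals, so p-values measure only the spread between these libraries.

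Satellite cells are the stem cells of skeletal muscle, and Pax7 is the transcription factor that defines them. Their surface carries receptors (Calcr, the calcitonin receptor, linked to quiescence, and Cxcr4, the receptor of the chemokine Cxcl12), adhesion proteins (Cdh15 or M-cadherin, Vcam1, and the C-type lectin Chodl), heparan sulfate proteoglycans (Sdc3 and Sdc4), the transmembrane protein Megf10, and the sialomucin Cd34. Several of these proteins also occur elsewhere: Vcam1 and Cd34 on fibroblasts and endothelium, Cxcr4 on blood cells, and Cdh15 on fusing myoblasts.

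In GENCODE release M21 on the GRCm38 build, Cxcr4 lies at chr1:128588199-128592293 and Cd34 at chr1:194938819-194961279. Sdc4 lies at chr2:164424247-164443887, Vcam1 at chr3:116109949-116129688, Sdc3 at chr4:130792537-130826319 and Calcr at chr6:3685680-3764714. Cdh15 lies at chr8:122847966-122867397 and Chodl at chr16:78930948-78951733. Cxcr4, Sdc4, Vcam1 and Calcr are on the minus strand and the others on the plus strand. RefSeq promoter windows for GRCm38.p6 matched 7 of the 9 members by symbol, and Vcam1 and Megf10 had no entry. The 250 bases upstream of the RefSeq start were searched on both strands for CANNTG, the E-box bound by MyoD and other basic helix-loop-helix factors. The windows of Cdh15, Sdc4 and Pax7 and 1 of Calcr lie inside the GENCODE bounds of their genes. For Sdc4 and Cxcr4 the bases that follow the window were not found in a GENCODE transcript. The windows of Chodl and Cdh15 are shown because they held the most matches, and both genes rose after MyoD was switched on. Cxcr4 was also higher on day 2 of MyoD alone than in MEFs, and its window held no match. The capitals mark CANNTG, both sequences are on the plus strand, at chr16:78930698-78930947 for Chodl and chr8:122848124-122848373 for Cdh15.
Chodl: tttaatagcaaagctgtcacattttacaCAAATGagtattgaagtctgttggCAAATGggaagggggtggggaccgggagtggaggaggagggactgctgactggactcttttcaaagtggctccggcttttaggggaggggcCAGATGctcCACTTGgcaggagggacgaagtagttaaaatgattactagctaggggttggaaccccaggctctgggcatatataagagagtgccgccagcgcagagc
Cdh15: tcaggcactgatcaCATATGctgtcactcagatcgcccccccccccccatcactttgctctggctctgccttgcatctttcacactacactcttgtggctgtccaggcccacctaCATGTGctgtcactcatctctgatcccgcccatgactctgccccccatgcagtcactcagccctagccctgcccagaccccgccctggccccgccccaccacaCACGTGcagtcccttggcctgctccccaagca
The window of Chodl held 4 matches and that of Cdh15 held 3, against a median of 1 over 32851 such windows, of which 66.2% had at least 1. Calcr has 2 annotated starts, and 1 of its windows held 1 match. None was found in the windows of Cxcr4, Sdc3, Sdc4, Cd34 or Pax7, and a match is a description of the letters, not a bound site.

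Libraries held 15.6 to 36.3 M reads assigned to transcripts, with a median of 22.1 M. The lowest level taken as detectable was 3 reads in a library, and intervals on ratios of low counts cover counting error only. Labelled cell types were checked by summed marker levels in CPM, read counts scaled to the library size adjusted by edgeR's TMM factors. The 12 fibroblast markers summed to between 10680.0 and 14620.0 CPM in MEFs and stayed at or below 938 CPM in both myoblast groups. The 12 myotube markers summed to between 55.1 and 174 CPM in MEFs and to at least 10250.0 CPM in every library of the 5 days of MyoD alone and of F/R/C. Endothelial markers summed to at most 23.2 CPM in any library, 14.9 of it Vwf, with Pecam1 at or under 2.93 CPM. Blood markers summed to at most 104 CPM, with Ptprc at or under 0.676 and Tyrobp at or under 0.155 CPM. Laptm5 supplied 90.8 CPM of that highest sum, in replicate 3 of F/R/C on day 10. The blood sum was 8.352, 11.75 and 7.164 CPM in MEFs and 47.85, 65.95 and 67.23 on day 10 of MyoD alone. In the latter group Laptm5 was at 36.56, 44.94 and 55.59 CPM. A set of 6 libraries stood apart from their group in these sums or in the members. They were MEF replicate 1, replicate 3 of MyoD alone on days 8 and 10, bulk iMPC replicate 2, bulk myoblast replicate 3 and Pax7-positive myoblast replicate 3. The set is not complete, since Pax7-positive iMPC replicates that stood apart in single members are not in it. Replicate 2 had 16.9 CPM of Calcr in a group whose lowest library had 1.29. Replicate 1 had 3.25 CPM of Chodl in a group whose highest library had 28.1. Myotube markers summed to 1165 CPM in bulk myoblast replicate 3, against 33390.0 and 19270.0 in the other replicates, and to 15560.0 CPM in Pax7-positive myoblast replicate 3, against 4426 and 5537. All sorted libraries had been quantified with another fragment-length setting (180.03 bases, against 152.81 in the 39 unsorted ones), and the effect of the setting cannot be told apart from that of the sort.

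Levels of different genes were compared per transcript length, as TPM, the length-scaled unit the authors deposited. Vcam1 was the most abundant of the 9 markers in MEFs, at 202.8 ± 89.9 TPM (SD, n = 3), followed by Sdc3 at 87.8 ± 23.0 and Sdc4 at 86.3 ± 17.5. Cdh15 led in the 13 groups other than MEFs and bulk myoblasts, and in the latter Sdc4 led at 277 ± 69.6 TPM and Cdh15 followed at 203.7. Calcr was lowest in every group except Pax7-positive iMPCs, where Cd34 was lowest at 0.651 TPM. All further levels are CPM, scaled like the marker sums by edgeR's TMM factors, and they compare a gene between libraries only.

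**Figure D1:**
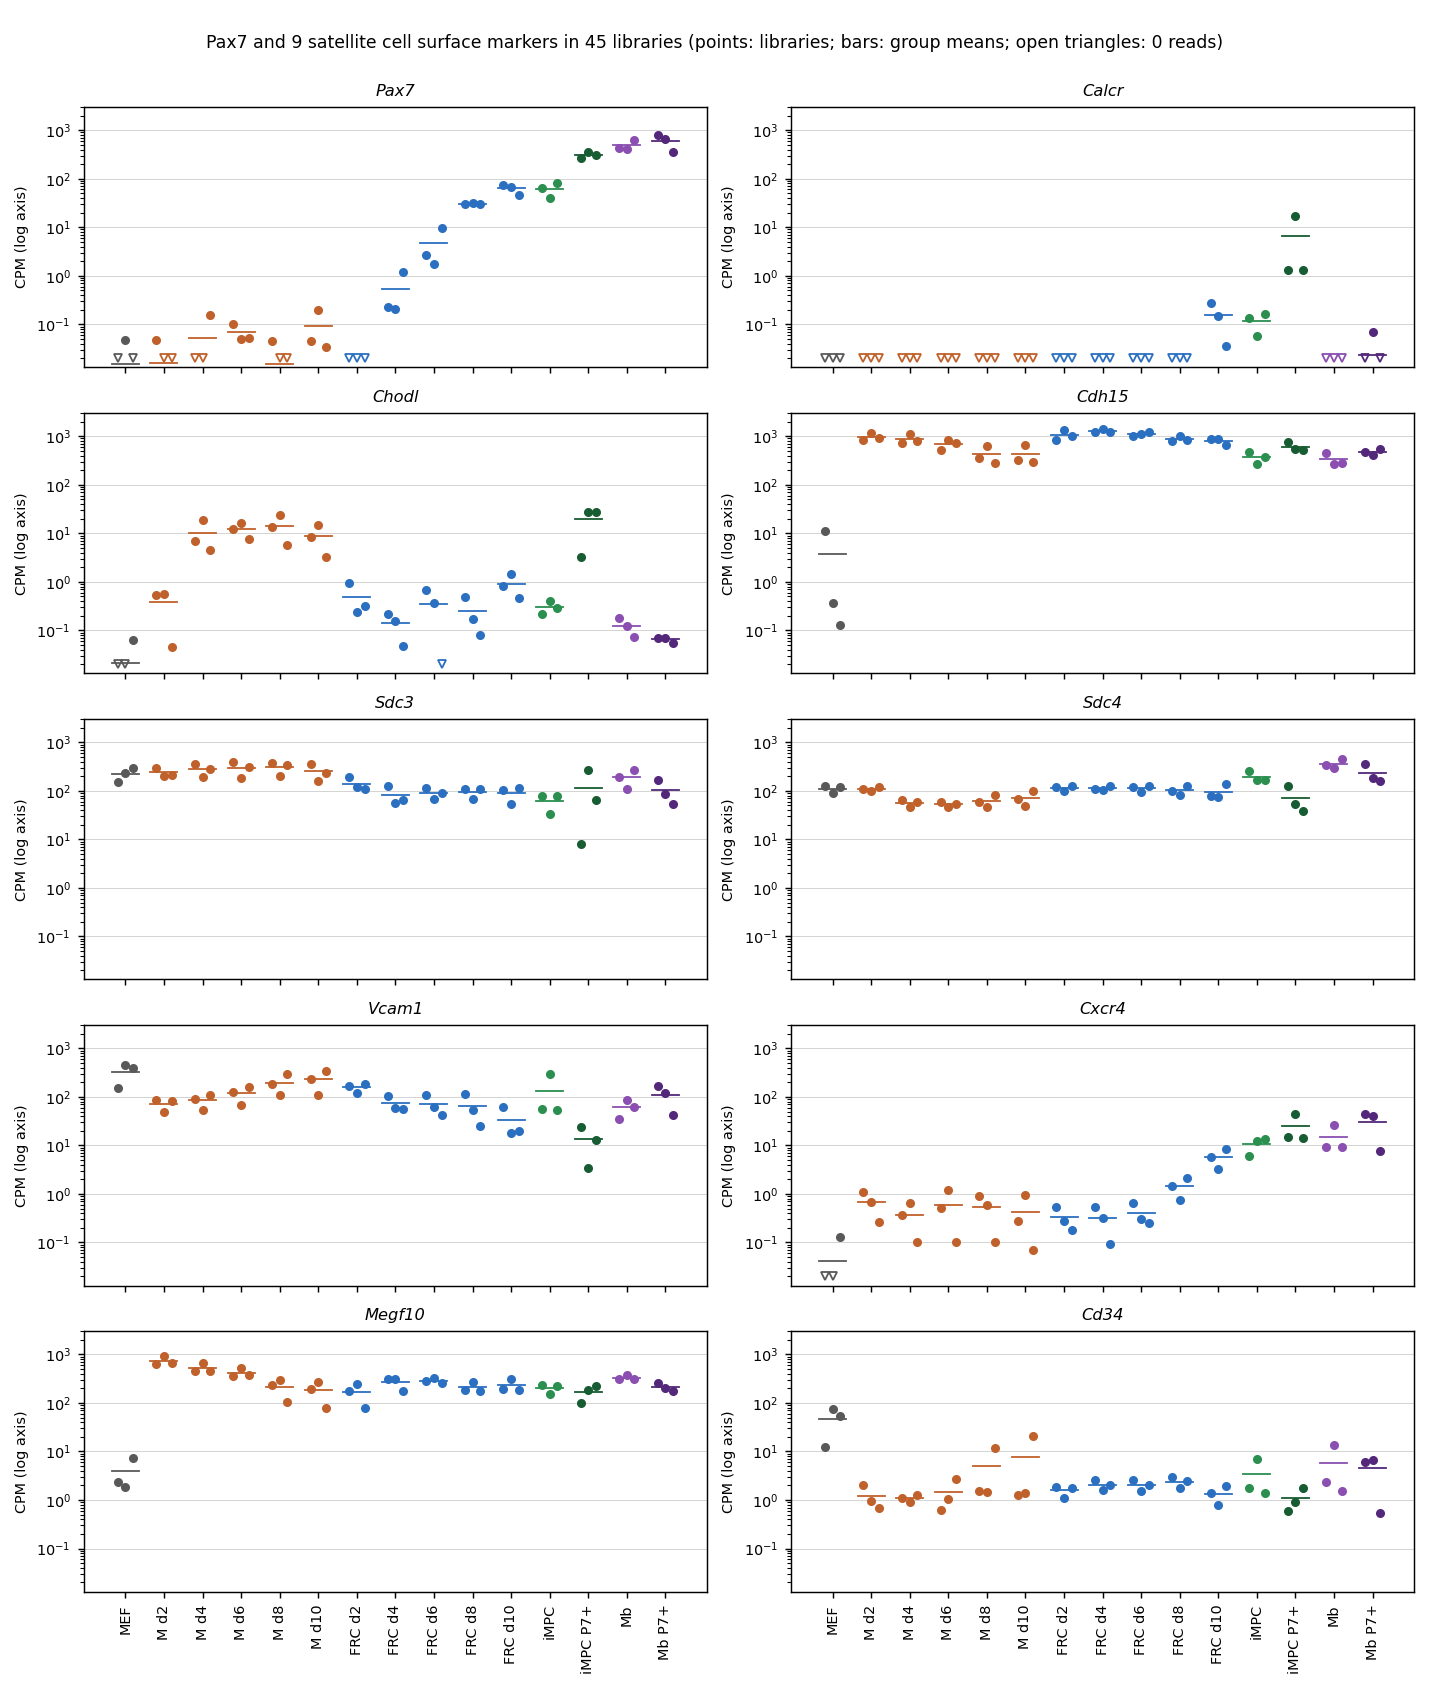
Levels of Pax7 and the 9 markers in CPM (log axis) in all 15 groups. Points are libraries, short bars are group means, and open triangles mark libraries with 0 reads. Pax7 and Cxcr4 are low with MyoD alone and high in F/R/C day 10, iMPCs and myoblasts, while Chodl is high with MyoD alone from day 4 and in Pax7-positive iMPCs.

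Pax7 was the yardstick. It was at or below 0.0465 CPM in MEFs, at or below 0.198 CPM in every library of MyoD alone, and without reads on day 2 of F/R/C. With F/R/C it stood at 0.222, 0.211 and 1.19 CPM on day 4, at 2.66, 1.71 and 9.52 on day 6, at 29.7, 31.3 and 29.9 on day 8 and at 75.7, 67.9 and 47.1 on day 10. Bulk iMPCs had 64.5, 39.3 and 81.3 CPM and Pax7-positive iMPCs 263, 351 and 305. Bulk myoblasts had 428, 401 and 639 CPM and Pax7-positive myoblasts 813, 674 and 349, so the sorted and unsorted myoblasts overlapped while the sorted and unsorted iMPCs did not.

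Each marker was set against Pax7 by the Pearson correlation of log2 CPM over the 15 group means, as a description with no test, since several groups share a source of cells. A marker was said to follow Pax7 at 0.7 or above, a value that 10.05% of the 17325 genes tested reached, and the median gene was at -0.06. Cxcr4, at 0.93, followed Pax7 by this rule and the other 8 markers did not, and 99.83% of genes lay below it. Sdc4 (0.58) and Calcr (0.50) came next. Cdh15 (0.16), Megf10 (0.13), Cd34 (-0.11) and Chodl (-0.27) were near 0, and Vcam1 (-0.65) and Sdc3 (-0.70) ran the other way. Of all genes 16.43% lay below Vcam1 and 13.02% below Sdc3, so such values were not rare. In replicates 1, 2 and 3 taken alone Vcam1 had -0.61, -0.34 and -0.81, and Sdc3 had -0.60, -0.41 and -0.60.

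The value of Cxcr4 was 0.91, 0.86 and 0.92 in replicates 1, 2 and 3 taken alone, and 0.76 by Spearman's rho. It was 0.89 without the 2 groups farthest from the median of Pax7, which were the myoblast groups, with 97.62% of genes below it. Over the 11 groups of the time course it was 0.78, with 92.78% of genes below it, and Spearman's rho was 0.42 there (75.54% below). Without the 2 myoblast groups Calcr rose to 0.72, with 87.08% of genes below it, and Sdc4 dropped to 0.27. Over all groups the rho of Calcr was 0.64. Outside the myoblast groups Calcr had reads only in Pax7-positive iMPCs, F/R/C day 10 and bulk iMPCs. Their means were 6.51, 0.153 and 0.118 CPM, so Pax7-positive iMPCs were the extreme point behind the 0.72. In the 13 unsorted groups Sdc4 was at 0.70 (91.39% of genes below it) and Cxcr4 at 0.89 (99.34%). Whether Sdc4 and Calcr pass 0.7 thus depends on which groups are counted. Over MEFs and the 5 F/R/C days alone, Cxcr4 had 0.89, with 93.56% of genes below it, and Vcam1 had -0.90, with 6.64% below. Sdc4 turned to -0.78 there (15.13% below, Spearman's rho -0.49), so its sign depends on the groups as well.

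**Figure D2:**
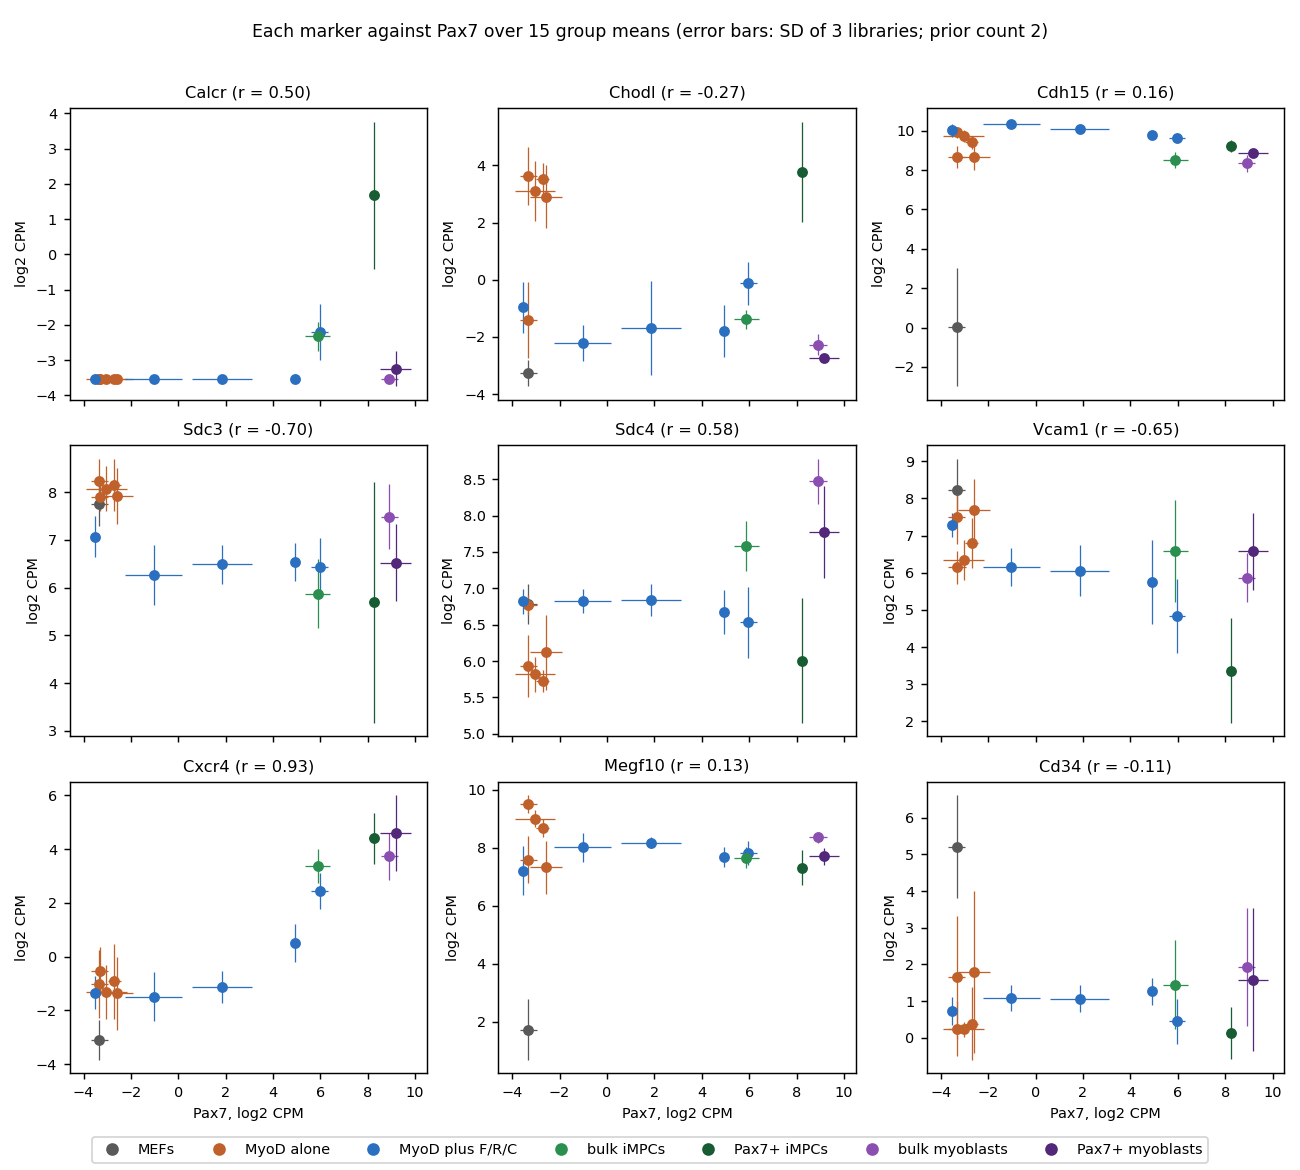
Each marker's log2 CPM (vertical axis) against that of Pax7 (horizontal axis). Points are the 15 group means with SD bars (n = 3) and titles give Pearson's r. Cxcr4 rises with Pax7 (0.93) while Vcam1 (-0.65) and Sdc3 (-0.70) fall.

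Among receptors, Cxcr4 had 0, 0 and 0.127 CPM in MEFs, the last from 2 reads. With MyoD alone it ran from 0.0697 to 1.196 CPM over all 5 days. F/R/C brought it to 0.643, 0.311 and 0.249 CPM on day 6, to 1.47, 0.742 and 2.09 on day 8 and to 5.68, 3.26 and 8.37 on day 10. The level thus left the range of MyoD alone between days 8 and 10, later than that of Pax7, which was clear of it from day 6. On day 4 the lowest F/R/C library of Pax7, at 0.211 CPM, was barely above 0.198 CPM, the highest of MyoD alone. Both are near the level of 3 reads in a library. Bulk iMPCs had 6.10, 12.6 and 13.7 CPM, Pax7-positive iMPCs 14.9, 45.3 and 14.1, bulk myoblasts 9.33, 26.5 and 9.25, and Pax7-positive myoblasts 43.6, 40.7 and 7.77. Among neighbours in the order of group means, only F/R/C day 10 and day 8 did not overlap. The mean of Cxcr4 on day 10 was 13.4 times that of MyoD alone (log2 fold change 3.80, with SE 0.85 and adjusted p 7.49e-04), and the libraries did not overlap. Without replicate 2 of MyoD alone, the highest of its group, the log2 fold change was 5.18. Against MEFs, F/R/C day 10 held 447 reads against 2, a ratio of 181 with a 95% counting interval of 49.9 to 1502 (adjusted p 6.58e-06). MyoD alone on day 2 held 41 reads against the same 2, a ratio of 20.4 with an interval of 5.31 to 174 (adjusted p 0.0120), and this call was lost without MEF replicate 1 (adjusted p 0.064), MEF replicate 2 (0.0578) or MyoD replicate 1 (0.0552). Day 2 with F/R/C (adjusted p 0.0802) and day 10 of MyoD alone (0.0552) did not pass against MEFs, but both passed under DESeq2 (0.0364 and 0.0218). They also passed without MEF replicate 3 (0.0449 and 0.0365), and day 10 without MyoD replicate 3 (0.0246).

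Calcr had no reads in 11 of the 15 groups, bulk myoblasts included, and 3 reads corresponded to 0.0846 to 0.19 CPM by group. It was first counted on day 10 of F/R/C, with 7, 3 and 1 reads, and in bulk iMPCs, with 5, 2 and 6 reads. Pax7-positive iMPCs held 30, 419 and 25 reads, or 1.30, 16.9 and 1.29 CPM, so 1 library held most of them. Pax7-positive myoblasts held 0, 2 and 0 reads while their Pax7 was at 349 CPM or above. The level in Pax7-positive iMPCs was 55.1-fold that of bulk iMPCs (log2 fold change 5.72, SE 1.22, adjusted p 0.0024) and did not overlap it. Without Pax7-positive iMPC replicate 2 the log2 fold change was 3.45 (adjusted p 0.00789), and with a replicate block it was 4.86. Against Pax7-positive myoblasts the ratio of reads was 265, with a counting interval of 72.9 to 2193 (adjusted p 0.00109), and the log2 fold change of 7.69 moved to 5.41 without that iMPC replicate and to 10.34 without Pax7-positive myoblast replicate 2. DESeq2 gave no adjusted p for Calcr in either comparison. No library of another group held more than 7 reads, so Calcr passed the filter on low counts only through Pax7-positive iMPCs. Both calls are thus higher in the group that let the gene be tested, and they describe these libraries only. With no filter on low counts both calls were kept. On day 10 of F/R/C the mean was 0.153 CPM, under the level of 3 reads in MEFs (0.190) and next to that of MyoD alone (0.149), and neither comparison passed (adjusted p 0.0981 and 0.0992). The level was at least 1.03-fold higher than in MyoD alone, counting its libraries at 3 reads each, and no fold against MEFs is given.

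Cdh15 and Megf10 rose within 2 days of MyoD with or without F/R/C and stayed high in every later group. Cdh15, the cadherin by which muscle cells adhere to each other and to the fiber, had 10.9, 0.372 and 0.127 CPM in MEFs. It stood at 829, 1174 and 913 CPM on day 2 of MyoD alone, and F/R/C libraries had 854, 1327 and 992. The first is a 256-fold increase in mean CPM (log2 fold change 7.97, SE 0.78, adjusted p 1.94e-09). MEF replicate 1 set most of the MEF level: without it the log2 fold change was 11.80, and the increases on the other comparisons with MEFs (8.09, 6.81 and 7.71) became 11.94, 10.63 and 11.66. By day 10 Cdh15 was at 328, 674 and 301 CPM with MyoD alone and at 872, 887 and 674 with F/R/C, which overlapped by a narrow margin (log2 fold change 0.90, SE 0.58, adjusted p 0.216). Bulk iMPCs had 484, 270.1 and 367 CPM, Pax7-positive iMPCs 765, 535 and 528, bulk myoblasts 449.6, 263 and 287, and Pax7-positive myoblasts 475, 406 and 544. From myoblasts to day 4 of F/R/C these ranges formed a continuous series, and of 14 pairs of neighbours only bulk myoblasts and MEFs did not overlap.

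Megf10, a receptor with epidermal growth factor repeats that supports myoblast proliferation, lies on the plus strand at chr18:57133090-57297467. It had 2.37, 1.86 and 7.48 CPM in MEFs. Day 2 of MyoD alone brought it to 621, 919 and 666 CPM, a 188-fold increase (log2 fold change 7.58, SE 0.58, adjusted p 1.59e-11). The F/R/C libraries of that day held 175.2, 241 and 77.3 CPM, below every library of MyoD alone, and this was the only member called between the treatments on that day (log2 fold change -2.16, SE 0.44, adjusted p 0.0020). With MyoD alone it went down to 190.2, 273 and 78.8 CPM by day 10, while with F/R/C it was at 196, 313 and 186, so the treatments then overlapped (log2 fold change 0.36, SE 0.43, adjusted p 0.529). The difference between the day 10 and day 2 effects of F/R/C was itself called for Megf10 (log2 2.52, SE 0.61, adjusted p 0.0128) and kept its call in all 20 alternatives. Against MEFs the other log2 fold changes were 5.42 on day 2 with F/R/C, 5.56 on day 10 of MyoD alone and 5.91 on day 10 with F/R/C, and without MEF replicate 3 they were 6.25, 6.34 and 6.79, with 8.40 on day 2 of MyoD alone. Bulk iMPCs had 237, 151 and 227 CPM, Pax7-positive iMPCs 99.3, 185 and 219, bulk myoblasts 307, 385 and 305, and Pax7-positive myoblasts 261, 199 and 176. Over the 15 group means Megf10 and Cdh15 ran together (r = 0.92), and Cd34 ran against both (-0.88 and -0.92), 3 values in which the MEF group takes part as the extreme point.

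Chodl, a membrane protein with a C-type lectin domain, followed MyoD alone rather than Pax7 along the time course. It had 0, 0 and 0.0634 CPM in MEFs, the last from 1 read. With MyoD alone it stood at 0.535, 0.573 and 0.0450 CPM on day 2, at 6.89, 19.1 and 4.60 on day 4, at 12.1, 16.4 and 7.71 on day 6, at 13.2, 23.9 and 5.78 on day 8 and at 8.33, 14.9 and 3.24 on day 10. F/R/C libraries stayed between 0 and 1.46 CPM on every day. From day 4 on no library with F/R/C reached the level of any library with MyoD alone on the same day. On day 4 F/R/C libraries held 5, 3 and 1 reads against 618 in all with MyoD alone, a ratio of 70.1 with a 95% counting interval of 36.7 to 154 (fitted log2 fold change -6.10, SE 0.98, adjusted p 3.33e-05). The mean was 34.5-fold lower with F/R/C on day 6 (adjusted p 1.16e-04), 57.8-fold lower on day 8 (3.01e-05) and 9.62-fold lower on day 10 (log2 fold change -3.27, SE 0.80, adjusted p 0.00167). These 4 calls held in each alternative run. On day 10 the log2 fold change was -2.55 without replicate 2 of MyoD alone, the highest library. On day 4 it was -5.26 without replicate 2 of MyoD alone, and on day 8 -5.26 without replicate 2 of MyoD alone and -6.78 without replicate 1 of F/R/C. On day 6 it was -6.04 without replicate 1 of F/R/C and -4.45 without replicate 3 of F/R/C. Against MEFs, the 574 reads of MyoD alone on day 10 against 1 gave a ratio of 489 with a counting interval of 87.4 to 19350.0. The 64 reads of F/R/C day 10 gave 51.9, with an interval of 8.99 to 2082.

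On day 2, 22 reads of Chodl with MyoD alone (ratio to MEFs 21.9, counting interval 3.55 to 905, adjusted p 0.028) and 33 with F/R/C (30.3, 5.07 to 1232, 0.0135) passed the test. The first call was lost without MEF replicate 1 (adjusted p 0.109), MEF replicate 2 (0.0988), MyoD replicate 1 (0.0801) or MyoD replicate 2 (0.0912). The second was lost without MEF replicate 1 (0.0634), MEF replicate 2 (0.0606) or F/R/C replicate 1 (0.0781), so the day 2 increase of Chodl rests on few reads. Chodl then differed sharply between cells with much Pax7. Bulk iMPCs had 0.219, 0.395 and 0.296 CPM and Pax7-positive iMPCs 3.25, 27.0 and 28.1, while bulk myoblasts had 0.179, 0.125 and 0.0728 and Pax7-positive myoblasts 0.0706, 0.0706 and 0.0544. The range of Pax7-positive iMPCs thus overlapped that of MyoD alone, where Pax7 was nearly without reads.

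Vcam1, the adhesion receptor bound by integrins that hold the Itga4 or Itga9 chain, had 151, 446 and 394 CPM in MEFs. It stood at 86.4, 49.3 and 82.8 CPM on day 2 of MyoD alone, 4.53-fold lower (log2 fold change -2.18, SE 0.69, adjusted p 0.0132), a call lost without MEF replicate 2 (adjusted p 0.0502) or MyoD replicate 2 (0.0707). It then rose to 236, 110.1 and 339.8 CPM on day 10 of MyoD alone and was not called against MEFs (log2 fold change -0.53, SE 0.66, adjusted p 0.569). In F/R/C cultures it began at 169, 121 and 183 CPM on day 2 and reached 63.2, 18.3 and 20.1 CPM on day 10. On day 2 every library with F/R/C was above every library without it, and on day 10 every one was below. By day 10 the F/R/C level was 6.75-fold lower than that of MyoD alone (log2 -2.76, SE 0.70, adjusted p 0.00241), and -3.58 without F/R/C replicate 1. The difference between the effects on days 10 and 2 was called (log2 -3.87, SE 0.97, adjusted p 0.0153). It was lost without replicate 2 of MyoD alone on day 2 (adjusted p 0.0527) or F/R/C replicate 2 on day 10 (0.0699). The 12 fibroblast markers summed to 11420.0, 3060.0 and 9447 CPM on day 10 of MyoD alone and to 2518, 1127 and 4894 with F/R/C, which overlapped, and Col1a1 was the most abundant of them in both. Of the 12, 3 were called lower and 1 higher (median log2 fold change -0.33), beside 23.3% of all genes called. Pdgfra was at 15.3, 8.57 and 40.1 against 35.5, 6.43 and 68.5 CPM, and the part of these markers in the result was not tested. Fewer fibroblasts and less Vcam1 RNA per cell cannot be told apart in bulk samples, and the same holds for every level given here.

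The syndecans Sdc3 and Sdc4 bind growth factors through their sugar chains. With F/R/C they differed from MyoD alone in opposite directions, Sdc3 being lower and Sdc4 higher on days 4 and 6. Sdc3 had 152, 229 and 289.6 CPM in MEFs and ran from 162 to 391 CPM in the 15 libraries of MyoD alone. With F/R/C it stood at 126, 55.5 and 65.2 CPM on day 4, at 116, 66.6 and 92.3 on day 6, at 110.0, 67.4 and 108 on day 8 and at 102, 52.6 and 117 on day 10, each time below every library of MyoD alone. The mean was 3.39-fold lower on day 4 (log2 fold change -1.76, SE 0.62, adjusted p 0.0383), 3.23-fold lower on day 6 (0.0411) and 3.25-fold lower on day 8 (0.0338), and on day 10 the log2 fold change of -1.49 did not pass (0.0518). These calls were close to the threshold. With no filter on low counts all 3 were lost (adjusted p 0.057, 0.0653 and 0.0567), and with the length offset those of days 4 (0.0664) and 8 (0.079). That of day 4 was lost without replicates 1 or 3 of MyoD alone or 2 or 3 of F/R/C (adjusted p 0.0738 to 0.153). Those of days 6 and 8 were lost without replicates 1 or 3 of MyoD alone or any replicate of F/R/C (0.0559 to 0.16 and 0.0594 to 0.149). The day 10 value passed with a replicate block (0.045), with DESeq2 (0.0402) and when only the groups compared were fitted (0.0362).

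Sdc4 had 127, 89.1 and 119 CPM in MEFs. On day 4 it was at 64.1, 46.6 and 60.0 CPM with MyoD alone and at 110.0, 103 and 129 with F/R/C, a 2.00-fold difference (log2 fold change 1.00, SE 0.32, adjusted p 0.0233). On day 6 it was at 58.3, 47.2 and 54.0 CPM against 121, 95.8 and 129, a 2.17-fold difference (log2 1.12, SE 0.33, adjusted p 0.0111). The groups did not overlap on either day, and the F/R/C libraries remained within the range of 73.1 to 136 CPM from day 2 to day 10. With MyoD alone the mean went from 109 CPM on day 2 to 53.2 on day 6. On days 8 and 10 the treatments overlapped and Sdc4 was not called. The day 4 call was lost without replicate 2 of MyoD alone (adjusted p 0.10) or replicate 3 of F/R/C (0.0781). Sdc4 was highest in bulk myoblasts (339, 293 and 449 CPM), then in Pax7-positive myoblasts (359, 184 and 157) and bulk iMPCs (251, 164 and 169), and it was low in Pax7-positive iMPCs (125, 54.6 and 38.9), near the levels of MyoD alone.

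Cd34, a sialomucin also found on fibroblasts and on endothelial and blood progenitors, was highest in MEFs, at 12.2, 76.6 and 53.6 CPM. It fell to 1.99, 0.975 and 0.674 CPM on day 2 of MyoD alone, 39.1-fold lower (log2 fold change -5.28, SE 1.08, adjusted p 2.75e-04), while F/R/C cultures had 1.88, 1.13 and 1.80 CPM (log2 -4.89, SE 1.05, adjusted p 5.34e-04). With F/R/C it stayed between 0.779 and 2.93 CPM on all days, and on day 10 it was still below MEFs (log2 -5.11, SE 1.06, adjusted p 1.63e-04). With MyoD alone, replicate 3 stood apart at 11.8 CPM on day 8 and 20.4 CPM on day 10, while the other replicates were between 1.30 and 1.56. The lower value with F/R/C on day 10 (log2 fold change -2.49, SE 0.96, adjusted p 0.0367) rested on that library, since the groups overlapped and without it the value turned to 0.14 (adjusted p 0.928). That call was also lost without any 1 replicate of F/R/C (adjusted p 0.0681 to 0.146), with no filter (0.0613), with the length offset (0.0691) and in a fit of only the groups compared (0.146). The call against MEFs on day 10 of MyoD alone (log2 -2.62, SE 0.94, adjusted p 0.0339) became -5.16 without replicate 3. It was lost without MEF replicates 2 or 3 or MyoD replicates 1 or 2 (0.0612 to 0.171). In sorted and bulk progenitors Cd34 was uneven, with 1.78, 7.05 and 1.42 CPM in bulk iMPCs, 0.607, 0.929 and 1.76 in Pax7-positive iMPCs, 2.38, 13.5 and 1.57 in bulk myoblasts and 6.07, 6.81 and 0.544 in Pax7-positive myoblasts. No 2 neighbours in the order of groups were separated.

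Counts of members were read beside the share of all 17325 genes called in the same comparison, and the 4 comparisons with MEFs share those libraries. Against MEFs, 6 of 9 members were called on day 2 of MyoD alone (Chodl, Cdh15, Cxcr4 and Megf10 higher, Vcam1 and Cd34 lower), where 22.4% of all genes were called. With F/R/C on day 2, 4 were called, where 20.4% of genes were called, and on day 10 of MyoD alone 4 were called, beside 18.9%. On day 10 of F/R/C, 6 were called (Chodl, Cdh15, Cxcr4 and Megf10 higher, Vcam1 and Cd34 lower), beside 34.8%. Over the 8 members with reads in both groups, the median log2 fold change was 2.10, 1.56, 1.79 and 2.57 in these comparisons, and that of all genes lay between 0.00 and 0.08. With Calcr set to no difference on day 10 of F/R/C, since its mean was under the level of 3 reads in MEFs, the median of the 9 was 0.00, so the median says little where 4 members rose and 4 had negative values.

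Between F/R/C and MyoD alone, 1 member was called on day 2 (4.93% of all genes), 3 on day 4 (13.2%), 3 on day 6 (15.4%), 2 on day 8 (18.7%) and 4 on day 10 (23.3%). Chodl was called lower on days 4, 6, 8 and 10, Sdc3 lower on days 4, 6 and 8, Sdc4 higher on days 4 and 6, Megf10 lower on day 2, and Vcam1 lower, Cd34 lower and Cxcr4 higher on day 10. Pax7 was called higher from day 4 on, by log2 3.33 (SE 1.05, adjusted p 0.0204) on day 4 and 9.44 (SE 0.72, adjusted p 6.38e-10) on day 10. On day 8 no member was called higher, as Pax7 was, and on day 10 Cxcr4 was the only one. The median of the 8 members with reads moved from 0.09 on day 2 to -0.57 on day 10, where that of all genes was -0.07. With Calcr at its bound it was 0.04 on day 10. When the effect of F/R/C on day 10 was compared with that on day 2, 4 members were called (6.01% of all genes): Chodl (log2 -3.68, SE 1.19, adjusted p 0.0475), Vcam1, Megf10 and Cxcr4 (log2 4.82, SE 1.23, adjusted p 0.0166). Cxcr4 and Megf10 kept the call in 20 of 20 alternatives, Vcam1 in 18, and Chodl in 4, its adjusted p running from 0.0515 to 0.236 without any 1 of the 12 libraries. Without replicate 2 of MyoD alone on day 10 the value for Cxcr4 was 6.20.

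**Figure D3:**
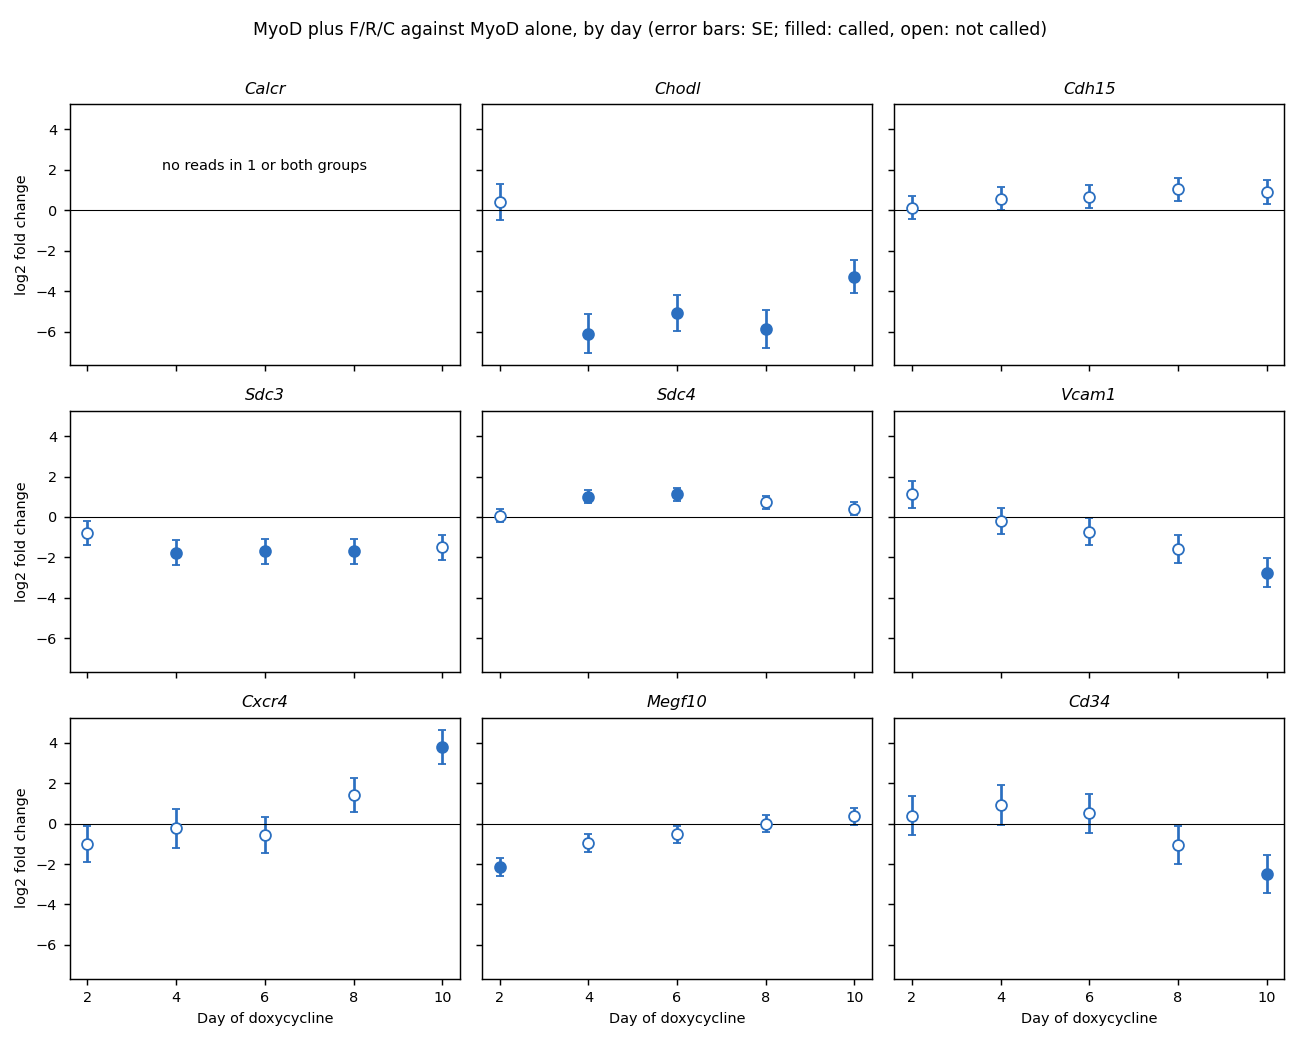
Log2 fold change of F/R/C against MyoD alone (vertical axis) by day of Dox (horizontal axis) for the 9 markers. Bars are standard errors and filled points were called. Chodl is low from day 4 on, Sdc3 from day 4 to day 8, and Cxcr4 is high on day 10 (3.80).

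Bulk iMPCs were compared with day 10 of F/R/C and with bulk myoblasts. Pax7 did not differ between bulk iMPCs and day 10 of F/R/C beyond the spread (log2 -0.04, SE 0.43), and 2 members were called, beside 9.57% of all genes. Sdc4 was higher in bulk iMPCs by log2 1.02 (SE 0.32, adjusted p 0.0235), with no overlap between 251, 164 and 169 CPM and 78.9, 73.1 and 136. Vcam1 was higher by log2 1.98 (SE 0.69, adjusted p 0.0376), but bulk iMPC replicate 2 stood at 290.0 CPM while the other replicates were at 56.2 and 54.4, inside the range of day 10. Without that replicate the value was 0.65 (adjusted p 0.571). Both calls depended on single libraries: Vcam1 was also lost without F/R/C replicate 2 (adjusted p 0.179) or 3 (0.141), and Sdc4 without F/R/C replicate 1 (0.103) or 2 (0.122) or iMPC replicate 1 (0.126). With the length offset neither was called, Vcam1 at an adjusted p of 0.0545 and Sdc4 at log2 0.95. Against bulk myoblasts, Pax7 was lower in bulk iMPCs (log2 -2.99, SE 0.46, adjusted p 1.35e-05). Of the members only Sdc3 was called, beside 19.6% of all genes, at 78.5, 32.8 and 77.2 CPM in bulk iMPCs against 193, 108 and 274 (log2 -1.61, SE 0.62, adjusted p 0.0437). That call was lost without bulk myoblast replicate 1 (0.0762) or 3 (0.17), or without any 1 iMPC replicate (0.0673 to 0.169). Sdc4 was at log2 -0.89 (SE 0.32, adjusted p 0.0325), under the minimum change of 1, and was called without bulk myoblast replicate 2 or iMPC replicate 1. Without the 6 libraries that stood apart Sdc3 was not called (log2 -0.95, adjusted p 0.384) and Cd34 was (log2 -2.31, adjusted p 0.00658).

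In iMPCs sorted for the Pax7 reporter, Chodl and Calcr were higher and Sdc4 and Vcam1 lower than in bulk iMPCs. These 4 were the members called between Pax7-positive and bulk iMPCs, beside 30.3% of all genes. Of the 9 members 6 had groups that did not overlap, these 4 among them. The share of all genes without overlap was not computed, so this count has no background. Chodl was 64.2-fold higher (log2 5.98, SE 0.91, adjusted p 3.71e-06), although Pax7-positive iMPC replicate 1, at 3.25 CPM, was well under the other replicates. Sdc4 was 2.68-fold lower (log2 -1.42, SE 0.33, adjusted p 6.28e-04), and log2 -2.06 without Pax7-positive iMPC replicate 1. Vcam1, at 23.9, 3.43 and 12.7 CPM, was 10.01-fold lower than in bulk iMPCs (log2 -3.32, SE 0.73, adjusted p 3.65e-04). Its value was -2.00 without bulk iMPC replicate 2 (adjusted p 0.0183) and -4.06 without Pax7-positive iMPC replicate 1. Pax7, the gene whose reporter was sorted, was higher by log2 2.31 (SE 0.45). Cxcr4 (log2 1.198, SE 0.72) and Cdh15 (0.71, SE 0.57) had every Pax7-positive library above every bulk library but did not pass (adjusted p 0.166 and 0.318). Sdc3 was uneven in Pax7-positive iMPCs, at 8.02, 265 and 63.6 CPM, and was called only without replicate 1 (log2 1.39, adjusted p 0.028). The median log2 fold change of the 9 members was 0.71, against -0.13 for all genes.

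Myotube markers moved with the sort, from 22480.0 to 29270.0 CPM in bulk iMPCs to 1414, 1949 and 1466 CPM in Pax7-positive ones. Of these markers 10 of 12 were called lower, beside 30.3% of all genes called. Fibroblast markers had 8 of 12 called lower, from 2143, 3829 and 2258 CPM to 1498, 1504 and 739. Proliferation markers went from 745, 1576 and 1158 to 2296, 2335 and 2870 CPM. Only 3 of those 12 were called higher, which is near the share of all genes. Their part in the changes of the members was not tested.

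In myoblasts the same sort changed no member at the threshold, beside 6.23% of all genes. EdgeR's quasi-likelihood test called 0 of 9, with 0 at an unadjusted p under 0.05, and DESeq2 also called 0. The values were 1.03 (SE 0.71) for Cxcr4, 0.83 (SE 0.66) for Vcam1, at 168, 121 and 42.2 CPM against 35.7, 87.9 and 62.7, and -0.91 (SE 0.61) for Sdc3. Sdc4, at -0.62 (SE 0.32), was called only without Pax7-positive myoblast replicate 1 (log2 -1.08, adjusted p 0.0346). Pax7 was at 0.32 (SE 0.43), so sorted and bulk myoblasts did not differ beyond the spread in the gene they were sorted for. Of 12 myotube markers 0 were called, and replicate 3 of each group was out of line with the others.

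The effect of sorting was compared between the cell types, and 2 members differed, beside 24.1% of all genes. For Chodl, which had 11 reads in bulk and 5 in Pax7-positive myoblasts, the effect was larger in iMPCs by log2 6.83 (SE 1.51, adjusted p 8.46e-04) and for Vcam1 it was lower by 4.16 (SE 0.97, adjusted p 0.00151). Both calls were kept in 20 of 20 alternatives. The value for Vcam1 was -2.86 without bulk iMPC replicate 2 and -4.89 without Pax7-positive iMPC replicate 1. Sdc3 and Sdc4 were called in this contrast without Pax7-positive iMPC replicate 1 (log2 2.30 and -1.43), and Sdc3 also with an offset for effective transcript length (log2 2.34, adjusted p 0.0459).

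The sorted groups were also compared directly, and 4 members were called, beside 30% of all genes. Pax7 was not called (log2 -0.999, SE 0.43, adjusted p 0.0547). Calcr and Chodl were higher in Pax7-positive iMPCs, and Sdc4 and Vcam1 were lower. Chodl held 1287 reads in Pax7-positive iMPCs and only 2, 2 and 1 in Pax7-positive myoblasts, a ratio of 288 with a 95% counting interval of 123 to 887 (adjusted p 3.79e-07). Sdc4 was 3.21-fold lower (log2 -1.68, SE 0.33, adjusted p 9.42e-05) and Vcam1 8.29-fold lower (log2 -3.05, SE 0.72, adjusted p 7.57e-04), and without Pax7-positive iMPC replicate 1 these values were -2.31 and -3.78. No library of one group lay within the other for any of the 4, and the share of all genes without overlap was not computed here either. Cdh15 (log2 0.36, SE 0.57), Cxcr4 (-0.31, SE 0.71) and Megf10 (-0.34, SE 0.43) did not pass. Sdc3 was at 0.13 (SE 0.61), and turned to -1.47 (adjusted p 0.0466) without Pax7-positive iMPC replicate 2. Cd34, at -2.05 (SE 0.97, adjusted p 0.0801), was called at -2.56 without Pax7-positive myoblast replicate 3 (adjusted p 0.0382) and at -2.45 with the length offset (0.0473).

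**Figure D4:**
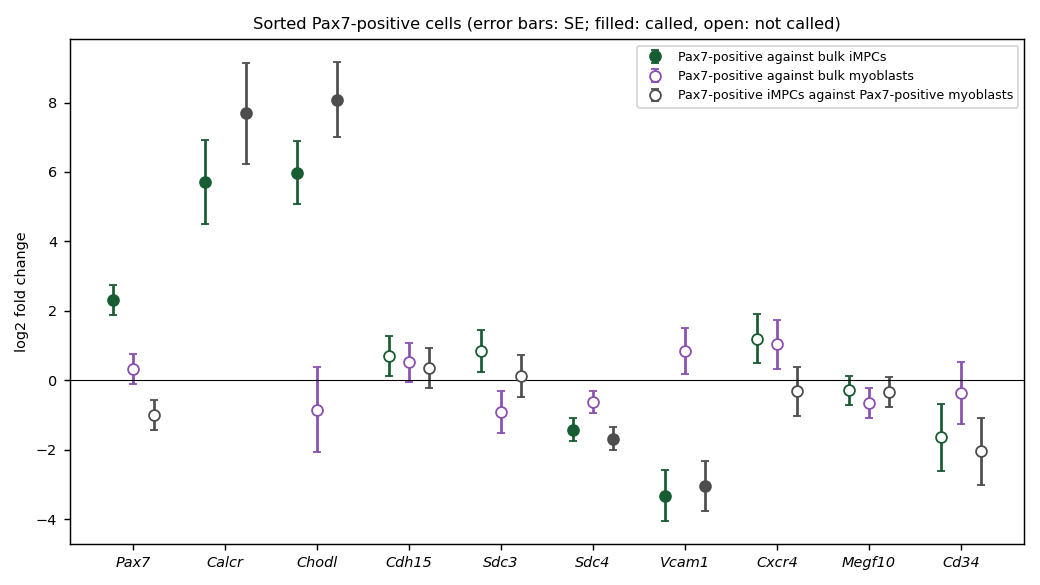
Log2 fold change (vertical axis) with standard error of Pax7 and the members (horizontal axis) in 3 comparisons of sorted cells, with called values filled. Chodl and Calcr are higher and Vcam1 and Sdc4 lower in both comparisons of Pax7-positive iMPCs. No member is called between Pax7-positive and bulk myoblasts.

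Ligands, partners and co-receptors of the members were examined as a list of 21 genes, of which 20 were tested. On day 10, 3 were called higher and 7 lower with F/R/C than with MyoD alone, beside 23.3% of all genes (median log2 fold change -0.42, against -0.07 for all genes). Cxcl12, the ligand of Cxcr4, moved opposite to its receptor, with 605, 143 and 137 CPM in MyoD alone and 15.7, 4.19 and 22.3 with F/R/C (log2 -4.39, SE 1.00, adjusted p 8.07e-04). Ramp1, an accessory protein of the calcitonin receptor family, was at 27.4, 46.5 and 18.9 CPM against 0.437, 0.730 and 2.37 (log2 -4.68, SE 0.79, adjusted p 3.20e-05). Fn1, a matrix protein bound by Sdc4, was lower by log2 4.58 (SE 0.79). In Pax7-positive iMPCs against Pax7-positive myoblasts, 7 were called higher and 3 lower, beside 30% of all genes. Itga4 and Itga9, the integrin chains that bind Vcam1, were higher where Vcam1 was lower. Itga4 was at 57.5, 141 and 188 CPM against 13.3, 3.50 and 10.7 (log2 3.82, SE 0.60, adjusted p 5.10e-06), and Itga9 at log2 4.20 (SE 0.60). Cxcl12 was at 0.217, 0.242 and 0.569 CPM against 91.2, 41.9 and 39.7 (log2 -7.42, SE 1.26, adjusted p 1.52e-05), while Cxcr4 overlapped between these groups. Between Pax7-positive and bulk iMPCs 2 were higher and 9 lower, beside 30.3%. Hgf, the growth factor that binds syndecans, was at log2 -5.24 (SE 0.97, adjusted p 5.17e-05). Between Pax7-positive and bulk myoblasts 0 were higher and 6 lower, beside 6.23%, Itga4 at -3.46 (SE 0.59, adjusted p 3.50e-04) among them.

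A list of 16 other satellite cell genes, all tested, gave the setting of the surface markers. With F/R/C on day 10, 8 were higher and 2 lower than with MyoD alone, beside 23.3% of all genes, with a median log2 fold change of 1.40. Myf5, the myogenic factor of committed progenitors, had no reads in MyoD alone and 1.91, 3.41 and 5.51 CPM with F/R/C. Heyl, a Notch target, was at 6.43, 6.00 and 1.32 CPM against 168, 124 and 88.5 (log2 4.80, SE 0.72, adjusted p 7.63e-06). In Pax7-positive iMPCs against Pax7-positive myoblasts 5 were higher and 4 lower, beside 30% of all genes. Pax3, a paralog of Pax7, was at 0.173, 0.0404 and 0.155 CPM against 14.8, 12.1 and 1.36 (log2 -6.23, SE 0.93, adjusted p 2.21e-06), and Heyl was higher by 3.41 (SE 0.66, adjusted p 8.76e-05). Between Pax7-positive and bulk iMPCs, 6 were higher and 1 lower, Pax7 included, beside 30.3%, and between Pax7-positive and bulk myoblasts 3 were higher and 0 lower, beside 6.23%.

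The genes most like each member over the 15 group means were named by correlation alone, from 17325 genes. Pax7 was most like Myf5 (0.98), Slc2a12 (0.98), Pcdhb17 (0.97), Pcsk2 (0.97) and Spa17 (0.96). Cdh15 was most like H19 (0.98), Eya4 (0.98) and Myog (0.97), the last a factor of muscle differentiation, and Megf10 was most like Erbb3 (0.97), Palm2 and Rfx3 (both 0.96). Vcam1 was most like Layn (0.96), Lrrk2 (0.95) and Ctsl (0.95), and Sdc3 most like Stard3 (0.97), Pwwp2b and Tnni3k (both 0.96). For Cxcr4 the leading genes were Zfp930, Zfp202 and Krr1 (each 0.96), for Calcr Wscd1 (0.97), Setd5 and Zfp410 (both 0.95), and for Chodl Chrac1 (0.92), Gm34368 and Cilp (both 0.91). Sdc4 was most like Gsap (0.92), Tcerg1l (0.91) and Fggy (0.90), and Cd34 most like 4833419F23Rik (0.94), Idh1 (0.94) and Catip (0.91). Among the members, Chodl and Sdc4 ran against each other (-0.79), as did Calcr and Vcam1 (-0.76), and Sdc3 and Vcam1 ran together (0.63).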

How the data were processed

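Bulk RNA-seq was available for 45 libraries in 15 groups of 3, grouped by their titles. Stranded poly-A libraries were read from a single end, per the labels' protocols. Per the submitters' processing notes, bcl2fastq 2.19, Trimmomatic 0.36, kallisto 0.44, edgeR 3.28 and GRCm38.p6 were used; their roles and settings are not given in the sources used here. The authors deposited estimated counts and TPM for each transcript, per the file headers. Estimated counts are not normalised, and TPM keep no depth. Gene totals were formed by adding the estimated counts of a gene's transcripts, for 35675 genes of GENCODE M21, and rounding; 121104 of 121843 transcripts matched, holding 99.4% to 99.8% of reads. Depths were 15.6 to 36.3 M reads.

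Genes were tested with edgeR 4.0.16 (quasi-likelihood F test, TMM, filterByExpr by group; R 4.3.3), with all libraries in 1 fit, a coefficient per group, no block and 30 residual degrees of freedom. Benjamini-Hochberg adjustment ran over 17325 genes, which included the 9 members. A gene was called when its adjusted p was under 0.05 and its log2 fold change was 1 or more in size. CPM use TMM library sizes, and log2 CPM for correlations have a prior count of 2. On simulated data for F/R/C against MyoD alone on day 10, with 200 of 17325 genes changed 4-fold, 136 of the 200 were called (68%), with 5 false calls.

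The members and gene lists were chosen with earlier results of these data known. The text names the members and Pax7 in every comparison. From each list it names up to 3 called genes with the largest change, and for likeness the 5 genes most like Pax7 and the 3 most like each member. Alternatives were DESeq2 1.42.0, RLE size factors, no filter, no minimum fold change, an offset from effective length, fits of only the groups compared, a replicate block, and each library left out. A fit without 6 libraries that stood apart was added after seeing the data. Same-numbered libraries deviated together, with every correlation above 0.1, for F/R/C against MyoD alone on day 2 (0.346 to 0.375), day 4 (0.241 to 0.332) and day 6 (0.223 to 0.362). The pairing there comes from this check and not from the labels.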

Additional observations from a re-analysis of the deposited data

Results flagged for a closer look

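The effect of F/R/C on day 10 differed from that on day 2, by a test of the difference itself, for 4 members. The difference was log2 -3.68 for Chodl, -3.87 for Vcam1, 4.82 for Cxcr4 and 2.52 for Megf10. Cxcr4 and Megf10 kept the call in 20 of 20 alternatives and Vcam1 in 18. Chodl kept it in only 4 and lost it without any 1 of the 12 libraries. For Vcam1 every F/R/C library was above MyoD alone on day 2 and below it on day 10.

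The effect of sorting for the Pax7 reporter differed between iMPCs and myoblasts, again by a test of the difference. It was larger in iMPCs by log2 6.83 for Chodl and 1.99 for Pax7 (adjusted p 0.0118), and lower by 4.16 for Vcam1 (log2 -4.16). Pax7 is the gene used for the sort. Pax7-positive myoblast replicate 3 and bulk myoblast replicate 3 stood apart from their groups in myotube markers, and both enter this contrast.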

How the results depend on the processing

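Of 50 calls of members over 16 comparisons, 33 kept call and direction in every alternative and with each library left out; the 2 calls of Calcr, for which DESeq2 gave no adjusted p, are not among them. The count of members called moved as follows. With only the groups compared it was 2 on day 2 of F/R/C against MyoD alone (1 in the reported fit), 1 for bulk iMPCs against F/R/C day 10 (2) and 0 for bulk iMPCs against bulk myoblasts (1). Without a filter it was 1 on day 8 (2), 1 and 0 in those bulk iMPC comparisons. With the length offset it was 1 on day 8 and 0 for bulk iMPCs against F/R/C day 10. Without the 6 libraries it was 1 on day 8 and 1 for bulk iMPCs against F/R/C day 10, where RLE factors and DESeq2 also gave 1. With no minimum fold change it was 2 for bulk iMPCs against bulk myoblasts. Members at 0.7 or above with Pax7 numbered 2 without the 2 farthest groups (Calcr added) and 2 in 13 unsorted groups (Sdc4 added), and 0 by Spearman's rho over the 11 groups of the time course, where Cxcr4 was at 0.42. Of all genes 87.08% lay below Calcr in the first setting and 91.39% below Sdc4 in the second. The cause of these moves was not tested.

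Leaving out each library gave 3 to 6 called members for day 2 of MyoD alone against MEFs, 3 to 5 for F/R/C day 2 and for MyoD alone day 10, and 6 for F/R/C day 10. Between treatments it gave 1 on day 2, 1 to 3 on day 4, 2 to 3 on day 6, 1 to 2 on day 8 and 3 to 4 on day 10. Bulk iMPCs gave 0 to 2 in both comparisons, Pax7-positive iMPCs 4 to 5 in both, Pax7-positive myoblasts 0 to 1, the contrast of day 10 with day 2 gave 2 to 3 and that of sorting 2 to 4. Reversed values were Cd34 on day 10 of F/R/C against MyoD alone (0.029 without the 6 libraries, and from -2.89 to 0.14 with each library left out, the last without MyoD replicate 3) and Sdc3 between the Pax7-positive groups (-1.47 without iMPC replicate 2, -0.17 without the 6 libraries or without myoblast replicate 3, up to 0.69 without iMPC replicate 1).

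A replicate block changed no call of a member on days 2, 4 and 6 of F/R/C against MyoD alone. On day 10 the blocked count stayed at 4, with Sdc3 gained (adjusted p 0.045) and Cd34 lost (0.057), and for F/R/C day 10 against MEFs it was 7, with Sdc3 gained (0.0485). The block changed no other call of a member. On days 8 and 10, 2 of 3 libraries of each pair of groups were closest to their own number. Depth limits Calcr, and Chodl and Cxcr4 in MEFs, where single reads set the value.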

Other observations

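Family relatives of the members, a list of 17 genes of which 16 were tested, were examined for the same comparisons. On day 10 of F/R/C against MyoD alone, 2 were called higher and 3 lower, beside 23.3% of all genes. Megf11, the paralog of Megf10, was higher by log2 3.61 (SE 0.81, adjusted p 6.90e-04), while Megf10 itself was not called. Layn, a lectin related to Chodl, was lower by log2 1.96 (log2 -1.96, SE 0.49, adjusted p 0.0020), as Chodl was. Between Pax7-positive and bulk iMPCs, 2 were higher and 7 lower, beside 30.3%. Between Pax7-positive iMPCs and Pax7-positive myoblasts 2 were higher and 3 lower, beside 30%, so 5 of 16 is near the share of all genes. Cdh2, or N-cadherin, was lower in the iMPCs (log2 -2.93, SE 0.37, adjusted p 1.91e-07), whereas Cdh15 did not pass there. Podxl2, a sialomucin related to Cd34, was higher (log2 2.16, SE 0.34, adjusted p 4.88e-06).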
